A study of Homo sapiens with 60 samples.

Results

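Of the 19712 gene symbols measured in the series, 8 that encode the core of the PI3K, AKT and mTOR pathway were followed: PIK3CA, PIK3CB, PIK3R1, AKT1, AKT2, RICTOR, RPTOR and MTOR. The list was set by name, with earlier results of these data known. All 8 were listed in both the count and the TPM data and passed the filter on low counts in every comparison. RNA was sequenced from PC9, HCC827, H1975 and HCC2935, 4 lines of EGFR-mutant non-small cell lung cancer, each in 5 arms of 3 biological replicates, which gave 60 libraries in 20 groups. The arms were DMSO, the solvent, for 24 h; acute osimertinib, an inhibitor of mutant EGFR, at 500 nM for 24 h; drug-tolerant persisters (DTPs), the cells left after 21 days at 500 nM; and short and long washout, DTPs then kept without drug. Short washout lasted 24 h in each line, and long washout 7 days in PC9, 4 days in HCC827, 3 days in H1975 and 10 days in HCC2935. The parental cells of the DMSO and acute arms had also been cultured for 21 days beforehand, without drug. Each line is a single established line. After long washout, a difference between lines cannot be told apart from the length of washout. In any arm, a difference between lines of unlike depth cannot be told apart from depth. Only RNA was measured, not the phosphorylation through which this pathway signals.

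Class I PI3K links receptor tyrosine kinases such as EGFR to a lipid second messenger at the membrane. A catalytic subunit (p110α from PIK3CA, p110β from PIK3CB) is held stable and inhibited by a regulatory subunit (p85α from PIK3R1) until the latter binds a phosphorylated receptor or adaptor, and the lipid then recruits the kinases AKT1 and AKT2. The kinase mTOR works in a pair of complexes: with Raptor (RPTOR) as mTORC1, which drives protein synthesis and restrains autophagy, and with Rictor (RICTOR) as mTORC2, which phosphorylates AKT. In EGFR-mutant lung cancer this pathway is one of the main outputs of EGFR and is known for carrying bypass signals under EGFR inhibitors.

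Libraries of PC9 and H1975 held 34.7 to 49.1 M estimated counts and those of HCC827 and HCC2935 17.7 to 25.6 M. Line and depth therefore cannot be told apart between these pairs of lines. The members were counted well in all of them, from 406 counts (PIK3R1) to 12137 (AKT1) in a library. Of 8 genes that report ERK output, a check of the drug, 8 fell after acute osimertinib in PC9 and HCC2935 and 7 in HCC827 and H1975. In DTPs 8 were lower in PC9 and HCC2935, 7 in H1975, where 1 was higher, and 4 in HCC827. The epithelial markers EPCAM, CDH1, KRT7, KRT8, KRT18 and KRT19 were detected in all 60 libraries and summed to 2297 to 15818 TPM. In DTPs 3, 5, 3 and 4 of these 6 were called lower in PC9, HCC827, H1975 and HCC2935, and 2 higher in PC9. Of all genes tested, 35.9%, 17.2%, 23.4% and 27.2% were called lower there. Of the lung lineage markers, NAPSA ranged from 0.264 to 421 TPM, while SFTPB did not pass 2.73 TPM and SFTPC was at 0 in 27 libraries. Of the blood markers, CD3E was at 0 in 42 libraries and PTPRC did not pass 3.48 TPM, while CD68, which other cells express too, reached 175 TPM. A list of 5 fibroblast and endothelial genes summed to 4.97 to 50.1 TPM under DMSO and 15.6 to 83.2 TPM in DTPs. Of these, COL1A1 reached 167 TPM. The filter on low counts was passed by 4, 5, 5 and 3 of them in DTPs against DMSO of PC9, HCC827, H1975 and HCC2935. Of those tested, 3, 4, 2 and 2 were called higher, where 35.4%, 19.4%, 22.4% and 25.3% of all genes were. PECAM1 was called lower in PC9 (-2.41). A gene can pass the filter through the arm where it is high, so these counts do not describe the whole list. The part of these markers in the results was not tested.

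Levels are given as CPM (estimated counts scaled to the size of the library) with TMM normalization over the 60 libraries, and changes as log2 fold changes ± SE from edgeR's quasi-likelihood test on the 6 libraries of a comparison. A gene is called at an adjusted p under 0.05 over all genes tested. On the authors' TPM scale the median of all genes lay higher than under TMM by 0.27 in PC9 DTPs against DMSO, by 0.17 in HCC2935 DTPs and by 0.15 in PC9 after long washout against DMSO, and lower by 0.11 in PC9 after long washout against DTPs (all log2). Of the genes called, 49.7% were higher in PC9 DTPs under TMM and 65.3% on the TPM scale, and 48.2% and 62.3% in HCC2935 DTPs. The share was 51.9% and 69.1% in PC9 after long washout against DMSO. By library size alone it rose to 67.4% there and from 47.8% to 57.9% in HCC827 after acute osimertinib. Some small changes of the members in these comparisons depend on the scale.

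In GENCODE release 29 (GRCh38), to which they were matched by symbol, PIK3CA spans chr3:179148114-179240093 (+), PIK3CB chr3:138652699-138834938 (-), PIK3R1 chr5:68215720-68301821 (+), RICTOR chr5:38937919-39074408 (-), AKT1 chr14:104769349-104795751 (-), AKT2 chr19:40230317-40285536 (-), RPTOR chr17:80544819-80966371 (+) and MTOR chr1:11106535-11262507 (-). Values are sums per gene, so that transcripts from different starts of a gene are merged. RefSeq lists 4 starts for PIK3R1, whose shorter products p55α and p50α lack part of p85α, and 2 starts each for PIK3CB, AKT1 and AKT2. The 3′ end of RICTOR overlaps OSMR on the opposite strand, that of PIK3CA overlaps KCNMB3, and MTOR holds ANGPTL7 and the antisense gene MTOR-AS1. Whether the counting used strand is not given in the sources used here. Reads of RICTOR and OSMR, or of PIK3CA and KCNMB3, therefore could not be told apart where they overlap. AKT1 and AKT2 are paralogs, between which reads of near-identical stretches could be split.

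Promoter sequences are shown for 4 members: PIK3R1 and RICTOR, which rose in PC9 DTPs, AKT1, which fell there, and RPTOR, the counterpart of RICTOR. The stretches are RefSeq sequence (GRCh38.p14), 5′ to 3′ on the gene's strand, upstream of the first start. They cover chr5:68215506-68215719 (+) for PIK3R1, chr5:39074409-39074649 (-) for RICTOR, chr17:80544588-80544818 (+) for RPTOR and chr14:104795752-104795998 (-) for AKT1. Capitals mark the GC box GGGCGG on either strand.
PIK3R1: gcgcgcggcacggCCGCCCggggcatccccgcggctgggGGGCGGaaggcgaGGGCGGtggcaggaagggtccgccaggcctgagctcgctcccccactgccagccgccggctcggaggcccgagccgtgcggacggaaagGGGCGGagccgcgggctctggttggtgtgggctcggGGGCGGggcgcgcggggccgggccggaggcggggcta
RICTOR: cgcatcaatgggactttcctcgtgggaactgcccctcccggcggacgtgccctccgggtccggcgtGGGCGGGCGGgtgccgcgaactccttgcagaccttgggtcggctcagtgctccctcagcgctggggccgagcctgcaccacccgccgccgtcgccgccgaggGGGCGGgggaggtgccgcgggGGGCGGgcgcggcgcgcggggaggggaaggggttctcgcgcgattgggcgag
RPTOR: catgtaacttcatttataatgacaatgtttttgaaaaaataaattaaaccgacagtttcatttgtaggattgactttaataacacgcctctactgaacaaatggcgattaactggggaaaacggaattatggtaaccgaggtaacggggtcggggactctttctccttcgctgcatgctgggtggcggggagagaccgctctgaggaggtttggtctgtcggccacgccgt
AKT1: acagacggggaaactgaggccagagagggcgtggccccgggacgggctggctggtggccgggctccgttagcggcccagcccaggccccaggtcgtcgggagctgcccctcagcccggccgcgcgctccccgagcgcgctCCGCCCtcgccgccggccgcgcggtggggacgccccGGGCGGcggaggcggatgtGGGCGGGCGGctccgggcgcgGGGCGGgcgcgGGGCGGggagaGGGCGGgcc
The upstream stretch of PIK3R1 held 5 GC boxes, that of RICTOR 4 and that of AKT1 7, with a pair of overlapping copies in those of RICTOR and AKT1, and that of RPTOR none. The full RefSeq windows around the first starts were 80% G and C for PIK3R1, 74% for RICTOR and 83.3% for AKT1, against 48% for RPTOR. A GC box was found in 10 of the 14 RefSeq windows of the members and in 45% of all 35116 windows. The forkhead motif TGTTTAC was found in 1 member window, that of PIK3CA, and in 3.42% of all windows. The ETS motif CCGGAAG was likewise found in that of PIK3CA alone, and in 10.3% of all windows. These are matches of letters and say nothing of binding.

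Under DMSO the lines set out from different levels of 7 of the 8 genes, where 91.2% of all genes tested differed between lines. PIK3R1 spanned the most, from 12.6 ± 0.825 CPM (SD, n = 3) in PC9 to 84.2 ± 2.21 CPM in HCC2935, 6.66-fold (edgeR, adjusted p = 6.23e-10), with HCC827 and H1975 between. AKT1 was highest in HCC2935 and lowest in HCC827, 4.05-fold apart (edgeR, adjusted p = 1.06e-08). PIK3CB went the other way, 3.14-fold higher in HCC827 than in HCC2935, and AKT2 was 3.07-fold higher in PC9 than in H1975. RICTOR was 1.91-fold higher in H1975 than in PC9, while RPTOR (1.47-fold) and MTOR (1.32-fold) differed less. PIK3CA lay at 46.0 to 56.5 CPM, its libraries overlapped between all neighbouring lines and its level was not called different (edgeR, adjusted p = 0.208). Per length, on the TPM scale, the AKT genes stood above the rest: the median over the 20 group means was 108 TPM for AKT1 and 114 TPM for AKT2, against 11.4 to 18.2 TPM for the other 6.

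**Figure D1:**
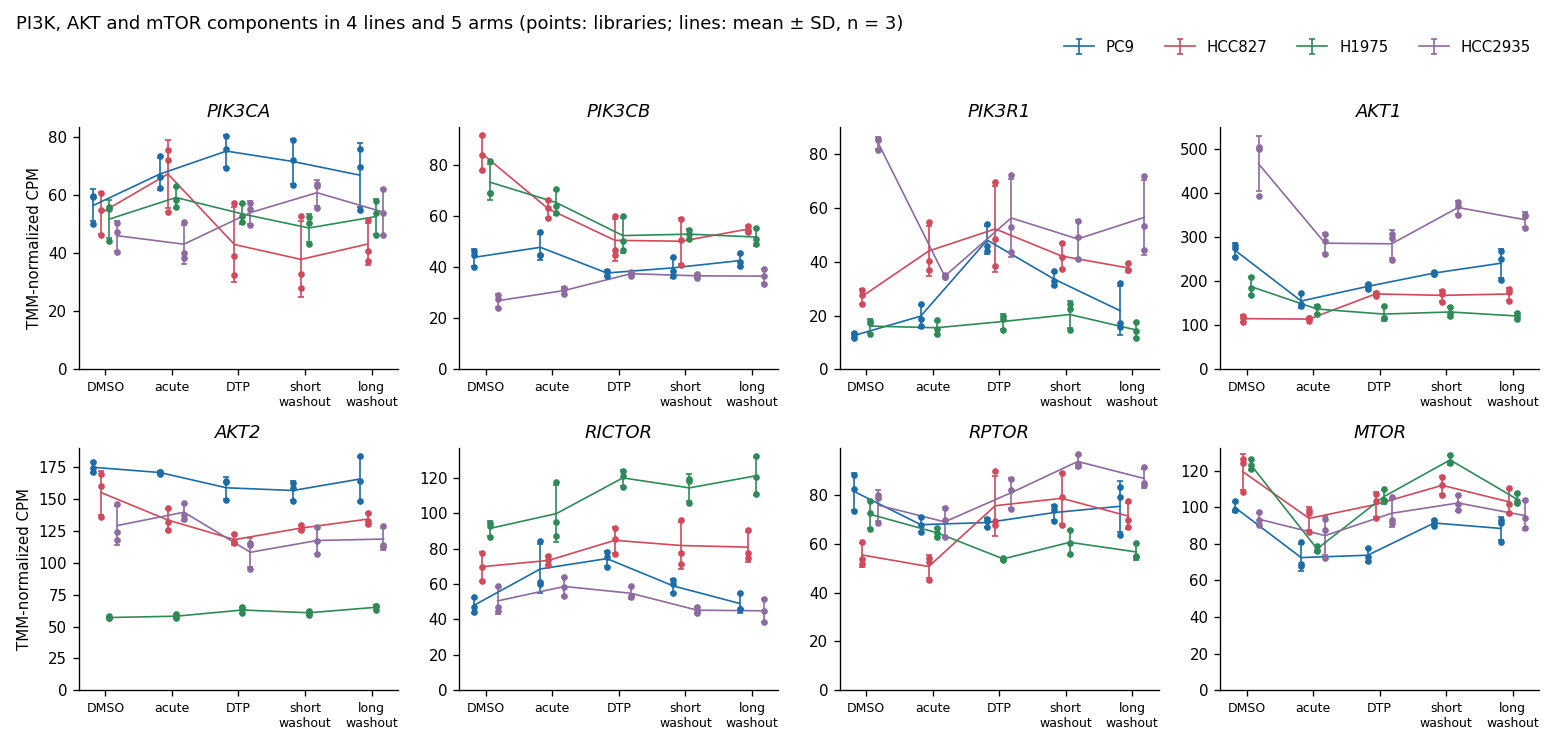
TMM-normalized CPM (y axis) of the 8 genes in the 5 arms (x axis) of the 4 lines (colours); points are libraries and lines join means with SD bars (n = 3). PIK3R1 climbs from 12.6 to 48.1 CPM between DMSO and DTPs in PC9 and descends from 84.2 to 56.3 CPM in HCC2935.

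After acute osimertinib, 12 of the 32 tests of members in the 4 lines were called, 3 higher and 9 lower. In PC9 5 of 8 members were called, where 68.5% of all genes were, in HCC827 3 of 8 against 42.3%, in H1975 2 of 8 against 44.9%, and in HCC2935 2 of 8 against 47.1%. In DTPs 21 of 32 tests were called, 8 higher and 13 lower: 8 of 8 members in PC9 against 71.3% of all genes, 5 in HCC827 against 36.7%, 5 in H1975 against 45.7% and 3 in HCC2935 against 52.5%. In DTPs the absolute log2 fold change had a median over the 8 of 0.43 in PC9, 0.42 in HCC827, 0.31 in H1975 and 0.24 in HCC2935. Over all genes it was higher in each, at 0.63, 0.43, 0.44 and 0.47. On the TPM scale with limma 4 of the 8 stayed called in PC9 DTPs, namely PIK3CA, PIK3R1, AKT1 and RICTOR. Acute osimertinib and DTPs were compared with the same DMSO libraries.

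**Figure D2:**
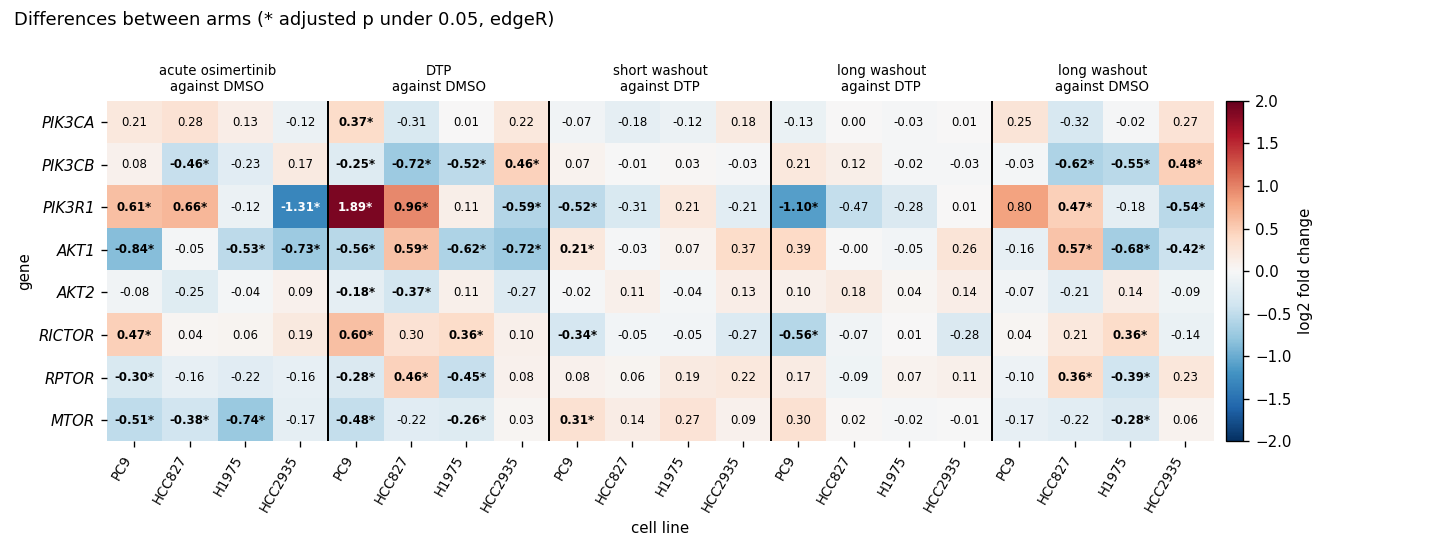
Log2 fold changes (colour and printed value) of the 8 genes (rows) in the 5 comparisons of each line (columns), with asterisks at an adjusted p under 0.05 in edgeR. PIK3R1 ranges from 1.89 in PC9 DTPs to -1.31 in HCC2935 after acute osimertinib, and few cells are marked for washout against DTPs.

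The catalytic subunits parted. PIK3CA, the catalytic subunit most often mutated in cancer, was called once, in PC9 DTPs, at 75.1 ± 5.53 CPM against 56.5 ± 5.48 under DMSO (log2 fold change 0.37 ± 0.10, edgeR, adjusted p = 0.00572). In HCC827 DTPs its replicate 1 stood at 57.3 CPM and the others at 32.6 and 39.1, and without replicate 1 the log2 fold change went from -0.31 to -0.58 and was called. In HCC2935 DTPs it was 0.22 and not called, but 0.39 and called on the TPM scale with limma. KCNMB3, which overlaps PIK3CA on the other strand, was called higher in PC9 DTPs as well (0.81), and in DTPs of no other line. Its part in the PIK3CA counts was not tested.

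PIK3CB, whose product p110β also responds to G protein-coupled receptors, fell in 3 lines and rose in the one where it started lowest. In HCC827 it read 77.9, 91.5 and 83.9 CPM under DMSO, 63.0, 59.2 and 66.1 after acute osimertinib and 59.9, 46.7 and 44.8 in DTPs. In H1975 it read 69.2, 69.1 and 81.4 CPM under DMSO and 50.1, 60.2 and 46.8 in DTPs. In both lines all DTP libraries lay below all DMSO libraries. The fall in HCC827 was called after acute osimertinib (-0.46 ± 0.10, edgeR, adjusted p = 0.00502) and in DTPs (-0.72 ± 0.15, adjusted p = 0.00513). That in H1975 DTPs (-0.52 ± 0.13, edgeR, adjusted p = 0.0113) was lost without DMSO replicate 3, at -0.44. In HCC2935 it read 24.2, 27.4 and 28.97 CPM under DMSO and 36.7, 38.1 and 37.6 in DTPs, without overlap (0.46 ± 0.11, edgeR, adjusted p = 0.00646). In PC9 the libraries stood at 40.1, 46.5 and 44.8 CPM under DMSO and 36.4, 38.2 and 38.5 in DTPs, and the call (-0.25 ± 0.08, edgeR, adjusted p = 0.0199) ended on the TPM scale, where the value was 0.02, with library size alone, at -0.10, and without DMSO replicate 2 or 3 or DTP replicate 1, at -0.22 to -0.24.

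PIK3R1, the regulatory subunit, changed in opposite directions between lines and had the widest span of the 8 in DTPs. In PC9 it read 12.8, 13.4 and 11.7 CPM under DMSO, 16.2, 18.8 and 24.5 after acute osimertinib and 54.1, 46.0 and 44.1 in DTPs. The 3 arms did not overlap, and the DTP level was 3.70-fold that of DMSO (log2 fold change 1.89 ± 0.11, edgeR, adjusted p = 2.88e-07). In HCC827 it read 29.5, 24.2 and 27.8 CPM under DMSO, 40.3, 54.7 and 37.1 after acute osimertinib and 69.8, 48.6 and 38.3 in DTPs, with the DTP libraries the most spread of the 3 arms. It rose by 0.61 ± 0.16 in PC9 and 0.66 ± 0.16 in HCC827 after acute osimertinib, and by 0.96 ± 0.22 in HCC827 DTPs (edgeR, adjusted p = 0.0071, 0.0103 and 0.00852).

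In HCC2935, the line with the highest starting level, PIK3R1 fell. The DMSO libraries read 85.2, 85.7 and 81.7 CPM, the acute ones 34.4, 35.2 and 34.3, and the DTPs 43.8, 72.3 and 52.8. The acute libraries were close together and lay below all DTP libraries. The acute fall was 2.48-fold (-1.31 ± 0.08, edgeR, adjusted p = 3.4e-06), and that in DTPs 1.51-fold (-0.59 ± 0.16, adjusted p = 0.013), with the latter call lost on the TPM scale at -0.45. In H1975 the libraries overlapped, at 13.3, 17.2 and 17.9 CPM under DMSO, 15.1, 18.3 and 13.1 after acute osimertinib and 19.9, 14.8 and 18.7 in DTPs, and no change was called (-0.12 ± 0.17 and 0.11 ± 0.17).

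AKT1, a kinase that promotes growth and survival downstream of PI3K, fell with acute osimertinib in every line but HCC827. In PC9 it read 283, 254 and 275 CPM under DMSO, 149, 144 and 173 after acute osimertinib and 194, 181 and 189 in DTPs. In HCC2935 it read 499, 504 and 394 CPM under DMSO, 289.9, 306 and 262 after acute osimertinib and 307, 248.8 and 298 in DTPs. In H1975 it read 209.7, 169 and 185 CPM under DMSO, 125, 140.4 and 145 after acute osimertinib and 144, 116 and 116 in DTPs. In these 3 lines every treated library lay below every DMSO library. The log2 fold changes in DTPs were -0.56 ± 0.06 in PC9, -0.62 ± 0.13 in H1975 and -0.72 ± 0.12 in HCC2935 (edgeR, adjusted p = 2.74e-05, 0.00468 and 0.000891). HCC827 went the other way: 122, 117 and 107 CPM under DMSO, 116, 115 and 111 after acute osimertinib, and 166, 174 and 172 in DTPs. There the acute libraries overlapped DMSO (-0.05 ± 0.09) and the DTPs lay above (0.59 ± 0.11, edgeR, adjusted p = 0.00327). These DTP calls were kept in each of the 4 lines under all alternatives run.

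AKT2 is the paralog tied most closely to insulin signalling. After acute osimertinib it was called in no line on the 6 libraries of the comparison. In HCC827 it was called without DMSO replicate 3, at -0.35, and with all 15 libraries of the line, at -0.24. It was called lower in PC9 DTPs (-0.18 ± 0.07, edgeR, adjusted p = 0.0353) and HCC827 DTPs (-0.37 ± 0.12, adjusted p = 0.0372). The first value was 0.09 on the TPM scale, and its call was lost without any 1 of the 3 DMSO replicates or DTP replicate 3, at -0.13 to -0.19. It was also lost with RLE size factors (-0.16), with library size alone (-0.02) and with all 15 libraries of the line (-0.16). The second call was lost without any 1 of 5 of the 6 libraries, namely DMSO replicates 1 and 2 and DTP replicates 1, 2 and 3, at -0.31 to -0.40. In H1975 it stood at 57.1 ± 0.75 CPM under DMSO and 63.0 ± 2.48 in DTPs, a difference that was not called (edgeR, adjusted p = 0.369).

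RICTOR, the subunit that defines mTORC2, rose in 2 lines. In PC9 it read 44.2, 46.8 and 52.7 CPM under DMSO, 60.0, 84.5 and 61.0 after acute osimertinib and 75.4, 69.7 and 77.9 in DTPs. In H1975 it read 86.6, 94.7 and 92.9 CPM under DMSO and 115, 124 and 121 in DTPs. In both, all DTP libraries lay above all DMSO libraries. The rise in PC9 was 0.47 ± 0.14 after acute osimertinib, a call lost without DMSO replicate 1 at 0.41, and 0.60 ± 0.09 in DTPs (edgeR, adjusted p = 0.0133 and 0.000161). That in H1975 DTPs was 0.36 ± 0.09 (edgeR, adjusted p = 0.0131) and was lost without DMSO replicate 1, at 0.32, or replicate 3, at 0.37. In HCC827 (69.9, 61.7 and 77.8 against 77.1, 85.3 and 91.6 CPM) and HCC2935 (47.3, 45.0 and 59.1 against 53.2, 58.7 and 52.4 CPM) the DMSO and DTP libraries overlapped. After acute osimertinib RICTOR in HCC2935 was called without DMSO replicate 3, at 0.33. OSMR, which overlaps RICTOR on the other strand, had a log2 fold change in DTPs of -0.88 in PC9 and 1.36 in H1975, both called, so that it moved against RICTOR in the first line and with it in the second. Its part in the RICTOR counts was not tested.

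RPTOR, which brings substrates to mTORC1, fell in DTPs of PC9 (-0.28 ± 0.08) and H1975 (-0.45 ± 0.10) and rose in those of HCC827 (0.46 ± 0.14; edgeR, adjusted p = 0.0111, 0.00549 and 0.0328). The PC9 value was -0.01 on the TPM scale and -0.12 with library size alone, and called in neither. The HCC827 call was lost without any 1 of DMSO replicates 1 and 3 and DTP replicates 2 and 3, at 0.32 to 0.50. In H1975 the DTP libraries were at 54.3, 53.8 and 53.4 CPM, below the DMSO libraries at 66.0, 77.4 and 72.8. After acute osimertinib it was called in PC9 alone (-0.30 ± 0.09, edgeR, adjusted p = 0.0111).

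MTOR, the kinase of both complexes, fell after acute osimertinib in 3 lines. In H1975 it read 123, 126 and 121 CPM under DMSO and 79.1, 76.6 and 76.1 after acute osimertinib, 1.67-fold lower (-0.74 ± 0.08, edgeR, adjusted p = 0.000296). It fell in PC9 (-0.51 ± 0.09, edgeR, adjusted p = 0.000643) and in HCC827 (-0.38 ± 0.10, adjusted p = 0.0129), where the call was lost without acute replicate 2, at -0.33, and on the TPM scale. In DTPs it was called lower in PC9 (-0.48 ± 0.07, edgeR, adjusted p = 0.00014), though not on the TPM scale at -0.21, and in H1975 (-0.26 ± 0.09, adjusted p = 0.044). The latter call was lost without any single library of the 6, at -0.23 to -0.29. In HCC2935 no change of MTOR was called.

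Washout of 24 h was set against DTPs to ask what the removal of drug did. In PC9 4 of 8 members were called against 22.2% of all genes: PIK3R1 (-0.52 ± 0.10) and RICTOR (-0.34 ± 0.07) fell and AKT1 (0.21 ± 0.05) and MTOR (0.31 ± 0.06) rose (edgeR, adjusted p = 0.00719, 0.0119, 0.0178 and 0.00837). PIK3R1 read 36.7, 31.4 and 32.8 CPM and RICTOR 54.8, 59.8 and 62.1 CPM, both between the DMSO and the DTP libraries. The AKT1 call was lost without DTP replicate 2 or short washout replicate 1, at 0.19 and 0.21. With all 15 libraries of the line in the fit, MTOR alone was called.

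In the other lines no member was called after 24 h. In HCC827 edgeR called 0 of 14009 genes (0%), with 197 at an unadjusted p under 0.05, none of them a member, and DESeq2 and limma also called 0. In H1975 edgeR called 0 of 14665 genes (0%), with 1950 at an unadjusted p under 0.05, among them MTOR, while DESeq2 called 399 and limma 0. In these 2 lines the replicate numbers paired the libraries, and with the replicate block 2 genes were called in HCC827, none a member, and 1697 in H1975, among them MTOR at 0.27. In HCC2935 3.52% of genes were called, and of the members AKT1, RICTOR and RPTOR had an unadjusted p under 0.05. AKT1 there read 371, 349.5 and 379.7 CPM, above all DTP libraries (0.37 ± 0.09, edgeR, adjusted p = 0.0588), and was called by DESeq2 and without DTP replicate 1, at 0.43.

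After long washout, PC9 had 2 of 8 members called against DTPs, where 17.3% of all genes were. PIK3R1 read 17.1, 16.0 and 32.3 CPM (-1.10 ± 0.27) and RICTOR 45.8, 46.1 and 55.0 CPM (-0.56 ± 0.11; edgeR, adjusted p = 0.0364 and 0.0279). Replicate 3 stood nearer to the DTPs than the other 2 in both. Both calls were lost without long washout replicate 1 or 2 or any DTP replicate, at -0.93 to -1.17 for PIK3R1 and -0.52 to -0.60 for RICTOR. Without long washout replicate 3, AKT1 (0.50), RPTOR (0.28) and MTOR (0.36) were called too, and 6815 genes in place of 2496. Without long washout replicate 2 it was 98 genes, and without long washout replicate 1 or any 1 of the DTP replicates 0. Against DMSO no member was called in PC9 by edgeR on the 6 libraries of the comparison, where 30.6% of genes were. PIK3R1, at 0.80 ± 0.27, had an unadjusted p under 0.05 there and was called by DESeq2, but not by limma. By edgeR it was called with library size alone (0.91), with all 15 libraries of the line (0.78) and without long washout replicate 2 (0.98).

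In the other 3 lines no member was called between long washout and DTPs. In HCC827 edgeR called 0 of 14053 genes (0%), with 434 at an unadjusted p under 0.05 and 7 by DESeq2. In H1975 it called 2 of 14702 (0.0136%), with 660 and 72, and no member had an unadjusted p under 0.05 in either line. In HCC2935 5.16% of genes were called, and AKT1 was the only member with an unadjusted p under 0.05. The distance from DMSO stayed called for 4 of 8 members in HCC827 (39.7% of all genes), 5 in H1975 (55%) and 3 in HCC2935 (39.9%). PIK3CB was at -0.62 ± 0.10 in HCC827, -0.55 ± 0.09 in H1975 and 0.48 ± 0.12 in HCC2935, and AKT1 at 0.57 ± 0.10, -0.68 ± 0.10 and -0.42 ± 0.11. PIK3R1 was at 0.47 ± 0.13 in HCC827 and -0.54 ± 0.16 in HCC2935, RPTOR at 0.36 ± 0.11 in HCC827 and -0.39 ± 0.09 in H1975, and RICTOR at 0.36 ± 0.09 and MTOR at -0.28 ± 0.06 in H1975. Of these, calls were lost without a single library for PIK3R1 in HCC827 (long washout replicate 1, at 0.46) and RPTOR there (DMSO replicates 1 and 3, long washout replicates 2 and 3, at 0.31 to 0.37). In HCC2935 this held for PIK3CB (DMSO replicate 1, at 0.40), PIK3R1 (DMSO replicates 1 and 2, long washout replicate 3, at -0.52 to -0.54) and AKT1 (DMSO replicates 1 and 2, at -0.37 to -0.38). PIK3CA in HCC827 was called without long washout replicate 3, at -0.48. The call of PIK3R1 was also lost in HCC827 with all 15 libraries of the line (0.48) and in HCC2935 on the TPM scale (-0.48). RPTOR in HCC2935 was called on the TPM scale with limma, at 0.32. The lengths of washout differed between lines, so that line and time cannot be told apart.

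Whether the lines shared a response was tested as an interaction of line and treatment. After acute osimertinib 4 of 8 members differed between lines, where 40.5% of all genes did; in DTPs 7 of 8 against 61.6%, and after long washout against DMSO 4 of 8 against 52.4%. In DTPs PIK3R1 spanned 2.48 log2 units between PC9 and HCC2935 (edgeR, adjusted p = 1.15e-06) and AKT1 1.31 between HCC827 and HCC2935 (adjusted p = 1.73e-06). PIK3CB spanned 1.19 and RPTOR 0.92. RICTOR was the member whose DTP change was not called different between lines (edgeR, adjusted p = 0.0646), with positive values of 0.10 to 0.60 in the 4 lines. Its span of 0.49 lay between those of AKT2 (0.48) and MTOR (0.51), which were called. On simulated data this test recovered 2.99% of log2 changes of 0.5, so the missing call does not show a shared rise.

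Ratios of TPM within a library, which do not depend on the scaling between libraries, show the balance of partners and are given as a description. RICTOR to RPTOR went from 0.375 ± 0.050 (SD, n = 3) under DMSO to 0.685 ± 0.056 in PC9 DTPs and back to 0.421 ± 0.110 after long washout. In H1975 it went from 0.803 ± 0.029 to 1.41 ± 0.062 and stayed at 1.35 ± 0.071. AKT1 to AKT2 went from 0.552 ± 0.036 to 1.07 ± 0.043 in HCC827 DTPs, and down from 2.44 ± 0.238 to 1.47 ± 0.148 in those of H1975. PIK3R1 to PIK3CA went from 0.223 ± 0.029 to 0.634 ± 0.069 in PC9 DTPs, and from 1.83 ± 0.244 to 0.808 ± 0.125 in HCC2935 after acute osimertinib. In each of these pairs of arms the 3 libraries of one lay apart from the 3 of the other, except for RICTOR to RPTOR after long washout, which overlapped DMSO in PC9 and DTPs in H1975. These pairs are examples with a marked shift, so that their separation is no test. RICTOR to RPTOR in HCC827 was 0.804 ± 0.144 under DMSO and 0.715 ± 0.066 in DTPs. In HCC2935 it was 0.427 ± 0.103 and 0.431 ± 0.060. PIK3R1 to PIK3CA in H1975 was 0.313 ± 0.074 and 0.331 ± 0.056. In each of these comparisons the libraries overlapped.

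**Figure D3:**
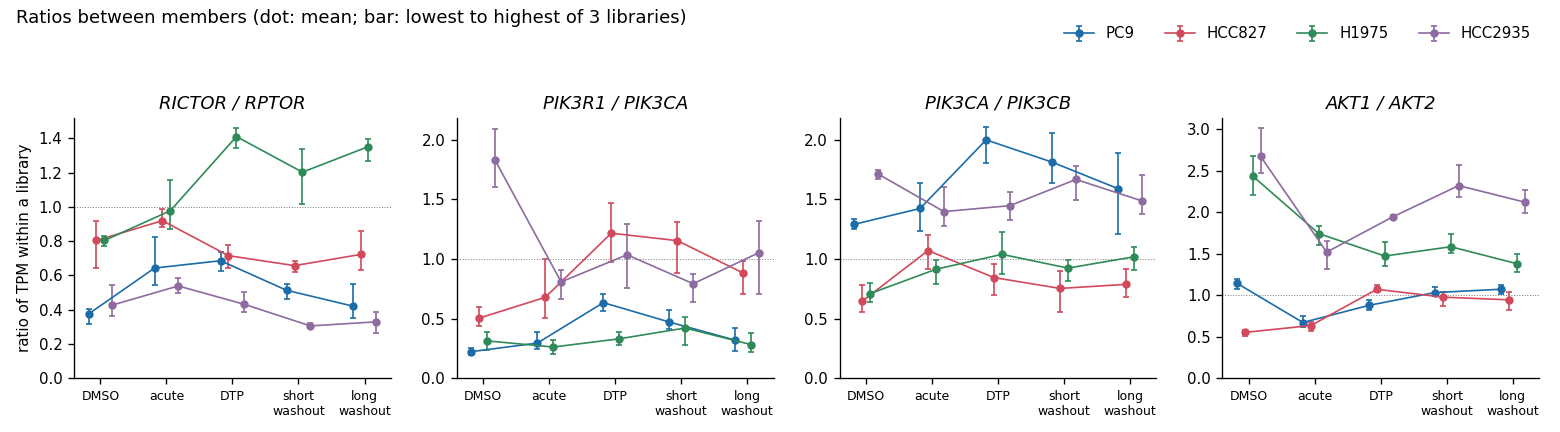
Ratios of TPM between pairs of members within a library (y axis) in the 5 arms (x axis) of the 4 lines (colours); dots are means and bars run from the lowest to the highest of 3 libraries. RICTOR to RPTOR rises from 0.803 to 1.41 in H1975 DTPs and stays at 1.35 after long washout, while in PC9 it returns from 0.685 to 0.421. In HCC827 and HCC2935 its DTP libraries overlap those of DMSO.

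Around the 8 members, 85 further genes of the pathway in 9 lists were counted. After acute osimertinib 65 of 82 tested were called in PC9, 37 of 82 in HCC827, 46 of 81 in H1975 and 36 of 79 in HCC2935. These are 79.3%, 45.1%, 56.8% and 45.6%, beside 68.5%, 42.3%, 44.9% and 47.1% of all genes. In DTPs they were 57 of 82, 34 of 81, 42 of 81 and 44 of 81, or 69.5%, 42%, 51.9% and 54.3%, beside 71.3%, 36.7%, 45.7% and 52.5%. Of the 9 other subunits and assembly factors of the mTOR complexes, 6, 5 and 5 were called lower after acute osimertinib in PC9, HCC827 and H1975. There 34.1%, 22.1% and 23.7% of all genes were. In HCC2935 3 of the 9 were called lower, where 25.1% of all genes were. Called higher were 0, 1, 1 and 1 of the 9 in PC9, HCC827, H1975 and HCC2935. The median log2 fold changes of the 9 were -0.64, -0.61, -0.62 and -0.16, beside 0.03, 0.01, 0.03 and 0.01 over all genes. Of the 8 other class I PI3K subunits and regulators, 5, 6, 6 and 4 passed the filter on low counts. Of those tested, 4, 3, 4 and 3 were called higher, where 34.4%, 20.2%, 21.2% and 22% of all genes were. In PC9 the fifth tested, PIK3R3, was called lower (-0.86). The filter was run on each comparison, so that a gene can pass it through the arm where it is high. These counts therefore do not describe the whole list.

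Of these genes 13 were called in the same direction in all 4 lines after acute osimertinib, 6 higher and 7 lower, and 11 in DTPs, 8 higher and 3 lower. These are 16.9% of the 77 and 14.1% of the 78 list genes tested in all 4 lines, beside 19.5% and 12.1% of all genes so tested. The largest was PIK3IP1, which binds and restrains p110: it went from 1.84 ± 0.69 CPM (SD, n = 3) under DMSO to 92.5 ± 19.5 after acute osimertinib and 60.3 ± 7.15 in DTPs of PC9, and from 15.6 ± 2.19 to 139 ± 24.9 and 70.7 ± 15.4 in HCC2935. Also higher after acute osimertinib were PDCD4, an inhibitor of translation (median over lines 1.84), the autophagy kinase ULK1 (1.68), the lipid phosphatases INPP5K (1.32) and INPPL1 (0.74), and TSC2, which restrains RHEB (0.49). Lower were the cap-binding factor EIF4E (-1.12), the mTOR assembly factors TELO2 (-0.96) and TTI1 (-0.67), the mTORC2 subunit MAPKAP1 (-0.73), the mTORC1 activator RHEB (-0.49) and the adaptor GRB2 (-0.40). In DTPs PIK3IP1 (3.18), ULK1 (1.36) and INPP5K (1.04) were again higher, with RRAGD (3.16), RRAGC (0.76), SESN3 (2.07) and FLCN (1.18), which act in amino acid sensing upstream of mTORC1, and the adaptor PIK3AP1 (1.71). TELO2 (-0.80), MAPKAP1 (-0.59) and EIF4E (-0.58) were again lower. Both comparisons share the DMSO libraries.

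**Figure D4:**
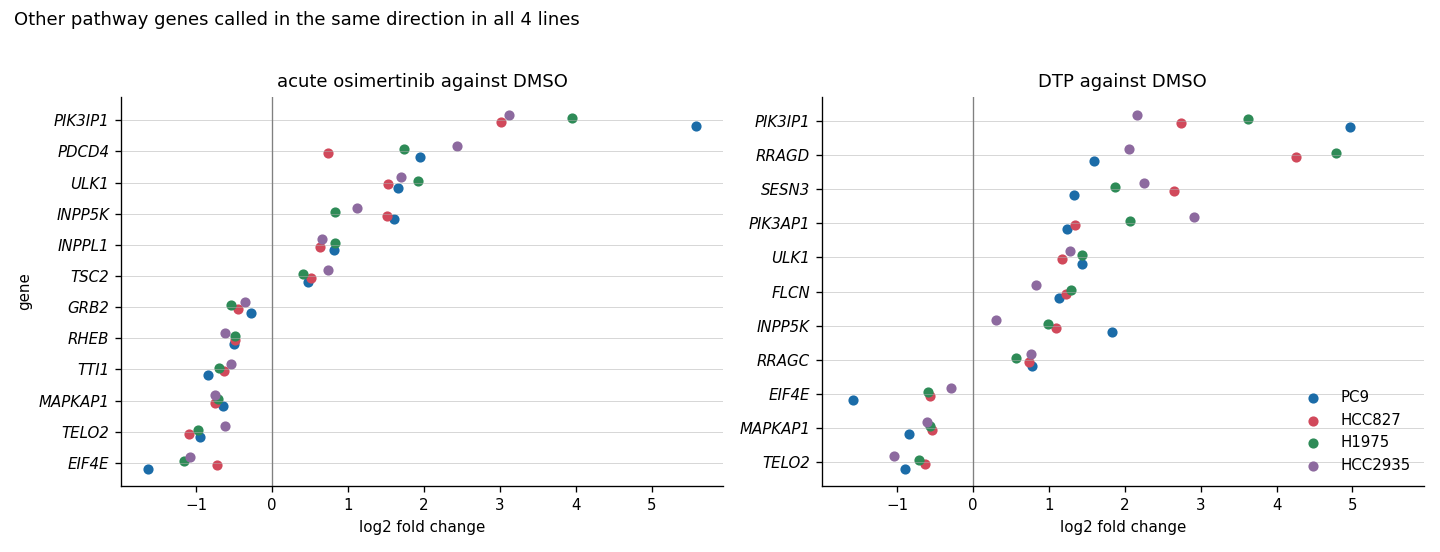
Log2 fold changes (x axis) in the 4 lines (colours) of the pathway genes beyond the 8 members that were called in the same direction in every line, after acute osimertinib (left, the 12 with the largest median) and in DTPs (right, 11 genes). PIK3IP1 lies at 3.01 to 5.58 after acute osimertinib, and EIF4E, TELO2 and MAPKAP1 lie below 0 on both sides.

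Other genes of the lists were called in some of the lines. Their differences between lines were not tested. SGK2, a kinase related to AKT, was called higher in DTPs of PC9 (4.72), H1975 (2.51) and HCC2935 (3.18) and stood at -0.81 in HCC827. SGK1 was called higher in DTPs of PC9 (1.39), HCC827 (1.66) and H1975 (1.39), with 0.29 in HCC2935. Of the adaptors, GAB2 was called higher in the same 3 lines (3.03, 1.10 and 1.56), and IRS1 lower in PC9 (-0.96), H1975 (-2.65) and HCC2935 (-1.502). PRR5L, which binds mTORC2, was called higher in PC9 (0.72), HCC827 (1.505) and H1975 (2.097). DDIT4, a stress-induced inhibitor of mTORC1, was called higher after acute osimertinib in PC9 (0.97) and HCC2935 (1.83) and lower in HCC827 (-2.09).

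The genes whose pattern was most like that of each member were sought over the 20 group means, centred within each line, among 10870 genes, and are given as a description. CDK4, a cell cycle kinase, was most like AKT1 (Pearson's r = 0.92), RAB14 most like PIK3CB (0.91) and UBR2 most like RICTOR (0.91). For MTOR it was TMEM138 (0.94), for RPTOR B4GALNT1 (0.94), for AKT2 COX15 (0.90), for PIK3CA PIGG (0.87) and for PIK3R1 HIVEP2 (0.84). The 20 means share libraries, depth and lines.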

How the data were processed

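RNA (Illumina mRNA TruSeq, paired-end) of 60 libraries was analysed. Per the labels, replicates are biological triplicates. Estimated counts by gene symbol, and log2 TPM with a pseudocount of 0.01, were deposited by the authors. The submitters' processing notes name HISAT2 2.1.0, Salmon 0.8.2 and hg38; their roles, the annotation and the strand setting are not given in the sources used here. Estimated counts were rounded and tested with edgeR 4.0.16 (R 4.3.3; quasi-likelihood F-test, TMM, filterByExpr) on the 6 libraries of each comparison, with Benjamini-Hochberg adjustment over all genes tested and calls at an adjusted p under 0.05. Differences between lines were tested as the interaction of line and treatment (24 libraries, 3 degrees of freedom), and DMSO levels over 12 libraries. Groups came from the labels.

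The 8 members, the pathway lists and the marker lists were chosen with earlier results of these data known. Not every listed marker is reported here. All members are named. Other pathway genes are named where called in the same direction in all 4 lines after acute osimertinib or in DTPs (at most 12 each), with at most 2 examples a list; values per library are given for the 4 members with the largest absolute median change in DTPs, and also for others where groups are compared. Positions are from GENCODE 29 and promoters from RefSeq.

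Alternatives were RLE size factors, library size alone, no filter, limma 3.58.1 on log2 TPM, a replicate block, DESeq2 1.42.0, all 15 libraries of a line, an adjusted p under 0.01 and each library left out. Same-numbered libraries deviated together, with r over 0.1 in every pair, in 3 of 20 comparisons: HCC2935 acute osimertinib against DMSO (0.126 to 0.357), and short washout against DTPs in HCC827 (0.402 to 0.694) and H1975 (0.249 to 0.599). The pairing there comes from the data, not the labels. In 60 pairs of replicates, squared differences were 8.82 to 140 times the counting error, and no pair was identical. On data simulated for PC9 DTPs against DMSO, with 14244 genes, edgeR recovered 34.3%, 95.5% and 97% of log2 changes of 0.5, 1 and 2. For HCC827, with 13768 genes, it recovered 7.46%, 62.7% and 97%. The test of differences between lines in DTPs, with the change placed in PC9 alone, recovered 2.99%, 49.3% and 83.3%. In each run 67, 67 and 66 genes were changed, far fewer than were called in the data, so recovery in the data may differ.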

Additional observations from a re-analysis of the deposited data

Results flagged for a closer look

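The following members had changes that differed between lines in the interaction test (edgeR, adjusted p under 0.05), each given as the highest minus the lowest log2 fold change over the 4 lines. After acute osimertinib the span was 1.97 for PIK3R1 (HCC827 highest, HCC2935 lowest), 0.80 for AKT1 (HCC827, PC9), 0.63 for PIK3CB (HCC2935, HCC827) and 0.57 for MTOR (HCC2935, H1975). In DTPs it was 2.48 for PIK3R1 (PC9, HCC2935), 1.31 for AKT1 (HCC827, HCC2935), 1.19 for PIK3CB (HCC2935, HCC827), 0.92 for RPTOR (HCC827, H1975), 0.68 for PIK3CA (PC9, HCC827), 0.51 for MTOR (HCC2935, PC9) and 0.48 for AKT2 (H1975, HCC827). After long washout against DMSO it was 1.34 for PIK3R1 (PC9, HCC2935), 1.25 for AKT1 (HCC827, H1975), 1.10 for PIK3CB (HCC2935, HCC827) and 0.76 for RPTOR (HCC827, H1975). The 3 tests share the DMSO libraries. Line and depth cannot be told apart where a span runs between PC9 or H1975 and HCC827 or HCC2935.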

How the results depend on the processing

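At an adjusted p under 0.01 the members called were 12 in DTPs, 2 after short washout, 0 after long washout against DTPs and 7 after long washout against DMSO, in place of 21, 4, 2 and 12. After acute osimertinib the calls of RICTOR and RPTOR in PC9 and of PIK3R1 and MTOR in HCC827 were lost at this threshold. Counts over all genes fell as well: in DTPs to 8612, 2828, 4248 and 5401 in PC9, HCC827, H1975 and HCC2935, from 10253, 5104, 6724 and 7455. PC9 after short and long washout against DTPs had 1241 and 0, in place of 3221 and 2496. With all 15 libraries of a line 1 was called after short washout and 4 after long washout against DTPs, where DESeq2 also called 4. Leaving out 1 library at a time, the counts were 11 to 13 after acute osimertinib, 18 to 21 in DTPs, 3 to 5 after short washout, 0 to 5 after long washout against DTPs and 9 to 13 against DMSO, 4 to 5, 6 to 7 and 4 to 5 for differences between lines, and 7 to 7 for DMSO levels. On the TPM scale with limma, PC9 DTPs gave 0.0151 for PIK3CB, 0.0891 for AKT2 and 0.05 for RHEB, all called lower with edgeR; the median of all genes moved up there too, and the cause was not tested. Of 160 member values, 159 stayed on their side of the threshold, without a change of sign where called, with RLE size factors, 156 with DESeq2, 154 with the replicate block and 150 with limma. Values without a call changed sign 117 times over the members, the named genes and the alternatives.

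The replicate block changed the calls of the members in 6 cases: it ended AKT2 (-0.37) and RPTOR (0.46) in HCC827 DTPs, MTOR (-0.26) in H1975 DTPs, AKT1 (0.21) in PC9 after short washout and RPTOR (0.36) in HCC827 after long washout against DMSO, and it added MTOR (0.27) in H1975 after short washout. Members called with the block were 12 after acute osimertinib and 18 in DTPs.

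Over all genes, counts moved by over 1.5 times mostly for washout. PC9 after short washout had 3221 called, 2023 with the block, 880 with 15 libraries and 1241 at 0.01. HCC2935 after short washout had 503, 1163 with DESeq2, 244 with the block and 88 at 0.01. PC9 after long washout against DTPs had 2496, 4224 with DESeq2, 5532 with 15 libraries and 0 at 0.01, and HCC2935 had 745, 1702, 1758 and 9, with 38 under the block. PC9 after long washout against DMSO had 4278, 6672 with 15 libraries and 1310 at 0.01. At 0.01 HCC827 had 3564, 2828 and 3366 in the acute, DTP and long washout comparisons with DMSO, H1975 4072 and 4248 in the first 2, and HCC2935 3396 in the last. With 1 library left out, counts went from 3221 down to 1785 in PC9 after short washout (without short washout replicate 2) and from 503 to 76 in HCC2935 (without short washout replicate 3). They went from 745 to between 17 (without long washout replicate 3) and 1837 (without long washout replicate 1) in HCC2935 after long washout against DTPs, and from 4278 to 1364 in PC9 after long washout against DMSO (without DMSO replicate 3). On simulated data log2 changes of 0.5 were recovered in 34.3% of cases in PC9 DTPs and 7.46% in HCC827 DTPs. Far fewer genes were changed there than were called in the data, so recovery in the data may differ. All 8 members were called in PC9 DTPs. Members without a call elsewhere may have changed by that much, and no DTP comparison within H1975 or HCC2935 was simulated.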
